A study of Homo sapiens with 9 samples.

Results

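The homeobox genes outside the HOX clusters encode transcription factors that share a homeodomain, a DNA-binding fold of helices that reads short AT-rich sites. The HOX genes pattern the body axis from 4 gene clusters, whereas the genes described here lie dispersed over the chromosomes and direct the formation of particular organs and cell types, from forebrain interneurons (DLX) and nephron progenitors (SIX2) to B cells (PAX5, POU2F2). Many of them are silent or weakly transcribed in a given differentiated cell, and their loci are textbook examples of genes held by repressive chromatin of the Polycomb type. The genes were chosen by annotation, as protein-coding genes on chromosomes 1 to 22 whose symbol begins with 1 of 22 family names followed by a digit (LHX, DLX, IRX, EMX, OTX, MSX, NKX, LBX, PAX, MEIS, PBX, PITX, GBX, EN, VAX, BARX, ALX, PRRX, POU, TGIF, ZHX and the name shared by SIX2 to SIX6). This gave 103 of the 57820 genes counted. No count enters the choice, but the group was proposed with earlier results of these same counts known, so numbers over the group are given as a description and not as independent support. The annotation and the name do not always coincide with a complete homeodomain. POU2AF1 is a coactivator of POU factors without one, PAX1 and PAX9 lack it, PAX2, PAX5 and PAX8 keep part of it, and TGIF2-C20orf24 and ZHX1-C8ORF76 are readthrough genes that share exons with another member.

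Chrom-seq asks which RNAs lie near a chromatin mark, by tethering the peroxidase APEX2 to a reader domain of that mark and capturing the RNA that it labels with biotin-aniline. The 9 libraries came from HEK293T, a human embryonic kidney cell line that expresses a viral large T antigen, and fell into 3 groups of 3. In all groups the cells were transfected with the APEX2 construct and with a SunTag peptide array. In the CBX1 group the array carried the chromodomain of CBX1 (HP1β), which binds histone H3 trimethylated at lysine 9. In the CBX1_W42A group the chromodomain carried the amino acid change W42A, and in the Control group the array carried no reader. Cells were given 500 μM biotin-aniline (30 min) at 48 hours after transfection, and labeling was started with 1 mM hydrogen peroxide (1 min). The readers were expressed from transfected plasmids in 1 cell line, and a difference in capture cannot be told apart here from a difference in the abundance of the RNA, since no input RNA was analysed here. The study describes the 3 libraries of a group as independent replicates, while the labels do not say whether they came from separate cultures, and the p-values measure the spread between these libraries. The sample numbers of CBX1_W42A do not continue those of Control and CBX1, and the labels do not say whether all groups were prepared together. A difference of CBX1_W42A from either group thus cannot be told apart from a difference in preparation.

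The libraries held between 8379542 and 11082852 counted read pairs. All 7 markers of HEK293T were detected, from 8.08 mean CPM for PAX2, itself a member, to 519 for VIM, and the markers of other cell types PTPRC, MYH7 and ALB lay at 0.035, 0.0505 and 1.24 mean CPM and CD3E, HBB and INS at 0. CPM is the count relative to the library size after scaling by edgeR's TMM factors. The 103 genes together made up between 1609 and 1975 CPM of a library, from 1609 to 1756 in CBX1, from 1673 to 1905 in Control and from 1780 to 1975 in CBX1_W42A. The highest CBX1 library thus lay below the lowest CBX1_W42A library, and the Control libraries overlapped both groups. Between 89 and 94 of the 103 genes had at least 1 count in a library.

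For 97 of the 103 genes at least 1 read was counted in the 9 libraries, and 6 genes had none (NKX1-1, POU3F3, IRX1, POU5F2, NKX2-6 and POU5F1B). A count of 0 over all 9 libraries allows a level of up to 0.035 CPM (3 counts, counting error only). A read in the overlap of genes on its strand went to neither of them, and POU3F3 and POU5F2 lie wholly inside other genes on their strand, so their 0 carries no information on the RNA. TGIF2 (5.2% of its span free of other genes on its strand), ZHX1-C8ORF76 (17.1%), ZHX1 (30.1%), TGIF2-C20orf24 (31.2%) and NKX2-1 (34.3%) were counted over part of their span only. Genes with counts summing to more than 18 over the 6 libraries compared were tested, which left 88 of the 103 in CBX1 against Control, 86 in CBX1_W42A against Control and 87 in CBX1 against CBX1_W42A. Per kb of the longest transcript, the most abundant member was POU4F1, a sensory neuron factor, at 41.9 CPM per kb over the 9 libraries. MSX2 followed at 27.5, PBX2 at 26.1 and IRX3 at 22.1 CPM per kb. The tested members had a median level of 10.1 CPM, against 29.5 CPM for the protein-coding genes tested.

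In all, 8 genes passed the test in at least 1 comparison, and the DNA upstream of the start is shown for 5 of them, because 4 of these moved together between CBX1 and CBX1_W42A (LBX1, NKX1-2, NKX2-2 and PAX7) and POU2F2 moved the other way against Control. Each sequence is the 200 bases before the annotated start of the gene, read 5′ to 3′ on the strand of the gene from hg19, with CG dinucleotides in capitals. The windows are chr10:102989552-102989751 for LBX1, chr10:126138754-126138953 for NKX1-2, chr20:21494665-21494864 for NKX2-2 and chr19:42700738-42700937 for POU2F2, all on the minus strand, and chr1:18957300-18957499 on the plus strand for PAX7.
LBX1: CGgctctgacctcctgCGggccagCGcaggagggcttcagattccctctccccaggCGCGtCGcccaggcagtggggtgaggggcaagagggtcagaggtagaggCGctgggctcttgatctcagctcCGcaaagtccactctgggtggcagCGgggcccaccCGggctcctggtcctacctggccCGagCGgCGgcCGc
NKX1-2: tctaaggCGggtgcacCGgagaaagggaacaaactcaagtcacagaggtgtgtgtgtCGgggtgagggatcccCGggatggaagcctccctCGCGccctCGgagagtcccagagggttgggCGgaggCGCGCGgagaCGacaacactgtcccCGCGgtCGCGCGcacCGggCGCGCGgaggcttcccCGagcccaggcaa
NKX2-2: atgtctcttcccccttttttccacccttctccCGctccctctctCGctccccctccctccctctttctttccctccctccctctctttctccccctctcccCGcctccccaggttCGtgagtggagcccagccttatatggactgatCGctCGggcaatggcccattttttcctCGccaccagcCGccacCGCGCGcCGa
PAX7: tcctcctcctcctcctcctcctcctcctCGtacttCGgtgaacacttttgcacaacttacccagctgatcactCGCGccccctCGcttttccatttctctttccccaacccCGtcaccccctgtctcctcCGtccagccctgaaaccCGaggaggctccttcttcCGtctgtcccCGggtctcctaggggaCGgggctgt
POU2F2: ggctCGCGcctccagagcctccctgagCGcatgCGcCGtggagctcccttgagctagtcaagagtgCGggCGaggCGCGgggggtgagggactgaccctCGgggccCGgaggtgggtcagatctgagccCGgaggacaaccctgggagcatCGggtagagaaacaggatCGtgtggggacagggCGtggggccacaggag
The windows hold 14, 22, 12, 11 and 15 CG dinucleotides in this order. The windows of SIX2 and PAX5, also called against Control, hold 19 and 10. The median was 14 over all 103 members, 11 over the windows of protein-coding genes and 3 over those of all genes. Among genes tested in CBX1 against Control, it was 14.5 for members and 14 for protein-coding genes. A relation of CG number to capture was not tested. The palindromic homeodomain core TAATTA, searched on both strands, occurred in none of these 5 windows, in 3 of the 103 member windows (2.91%), in 2.84% of the windows of protein-coding genes and in 5.18% of those of all genes.

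The first question was which of these RNAs were captured more or less with the H3K9me3 reader than without a reader. POU2F2 was the member that rose with CBX1, and NKX1-2, SIX2 and PAX5 fell. A call needed an absolute log2 fold change of 0.75 or more together with an adjusted p under 0.05 (edgeR's quasi-likelihood test, Benjamini-Hochberg adjustment over all genes tested). Of the 88 members tested, 1 was higher (1.14%) and 3 were lower (3.41%). Over all 18837 genes tested, 7.06% were called higher and 0.34% lower. Over the 14405 protein-coding genes tested, a closer background for the members, these shares were 4.76% and 0.368%. The median log2 fold change of the members was −0.12, beside 0.03 for all genes and −0.04 for protein-coding genes.

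POU2F2, which encodes the octamer-binding factor OCT2 of B cells and neurons, lies on chromosome 19 from 42590263 to 42700737. It measured 6.53, 4.29 and 7.28 CPM in the Control libraries, 14.6, 17.1 and 13.6 CPM in the CBX1 libraries and 8.82, 9.68 and 11.8 CPM in the CBX1_W42A libraries. The 3 groups did not overlap, with Control lowest and CBX1 highest. The log2 fold change was 1.34 (SE 0.19, adjusted p = 0.000285) in CBX1 against Control, 0.74 (SE 0.22, adjusted p = 0.0759) in CBX1_W42A against Control, and 0.58 (SE 0.17, adjusted p = 0.0792) in CBX1 against CBX1_W42A.

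NKX1-2, an NK-class gene of the early neural plate and tail bud, lies on chromosome 10 from 126135592 to 126138753. It measured 6.43, 6.10 and 7.89 CPM in Control, 1.78, 2.66 and 3.58 CPM in CBX1 and 7.91, 5.05 and 7.30 CPM in CBX1_W42A. The CBX1 libraries lay below all others, whereas the other 2 groups overlapped. The log2 fold change was −1.30 (SE 0.27, adjusted p = 0.0032) against Control and −1.33 (SE 0.28, adjusted p = 0.0134) against CBX1_W42A, and 0.00 (SE 0.23) for CBX1_W42A against Control.

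SIX2, which maintains the nephron progenitors of the kidney, lies on chromosome 2 from 45232300 to 45236569. It measured 13.7, 10.5 and 11.6 CPM in Control, 6.56, 7.76 and 6.28 CPM in CBX1 and 12.1, 9.58 and 9.31 CPM in CBX1_W42A. The CBX1 libraries were the lowest, and the log2 fold change against Control was −0.78 (SE 0.18, adjusted p = 0.00642). Without Control replicate 1 it was −0.67, without CBX1 replicate 1 −0.747 and without CBX1 replicate 3 −0.71, and in these 3 fits SIX2 was not called because the change did not reach 0.75. The same happened when libraries were scaled by the upper quartile (−0.70) or by size alone (−0.69), so that SIX2 was called in 10 of 15 alternatives.

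PAX5, the commitment factor of the B-cell lineage, lies on chromosome 9 from 36833272 to 37034103. It measured 5.84, 5.09 and 6.07 CPM in Control, 3, 3.22 and 1.55 CPM in CBX1 and 3.91, 3.58 and 3.60 CPM in CBX1_W42A. Both reader groups lay below Control, with a log2 fold change of −1.12 (SE 0.28, adjusted p = 0.0112) in CBX1 and −0.61 (SE 0.24, adjusted p = 0.173) in CBX1_W42A. Without CBX1 replicate 3, the lowest library, the first became −0.83 with an adjusted p of 0.0622.

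**Figure D1:**
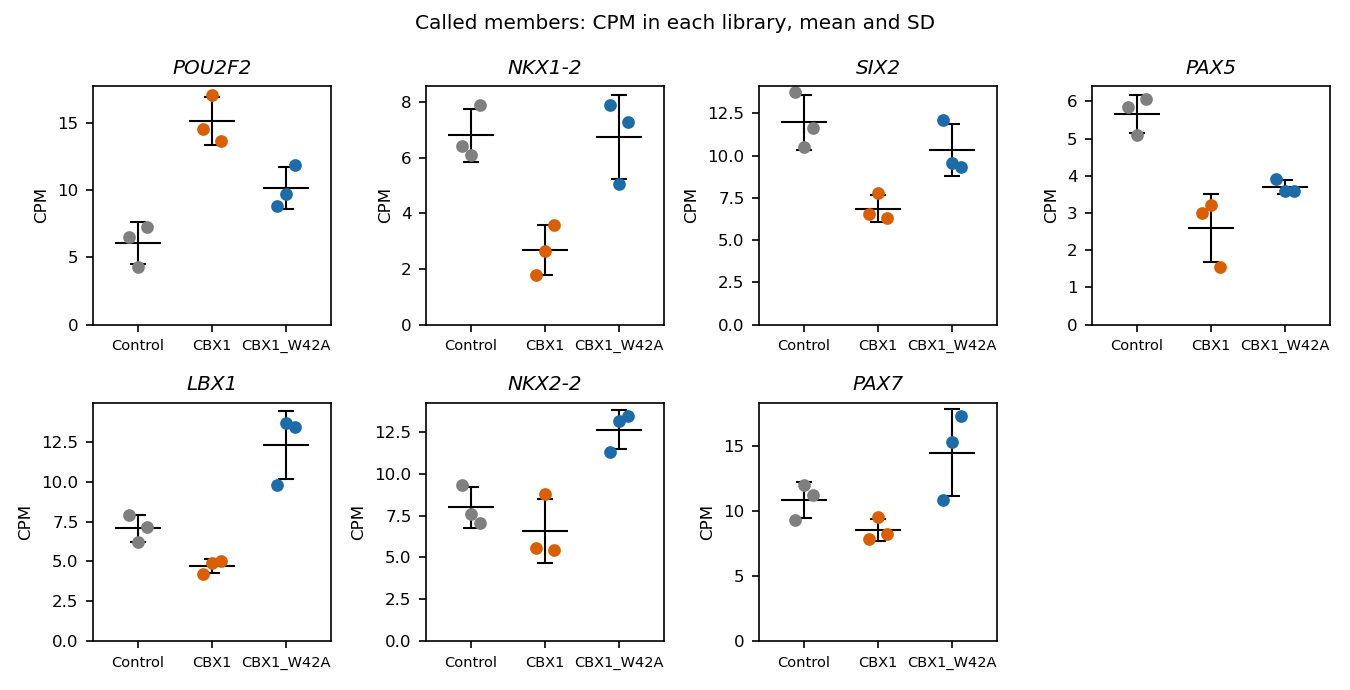
CPM (vertical axes, linear from 0) of POU2F2, NKX1-2, SIX2, PAX5, LBX1, NKX2-2 and PAX7, in each library of the 3 groups (points), with the mean and SD of the 3 libraries (bars). CBX1 is the highest group for POU2F2, with a mean of 15.1 CPM, and the lowest for the other 6 genes.

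SIX2 and its relatives, partners of the EYA coactivators in eye, ear, muscle and kidney, were below Control in CBX1 for all 6 members of the family tested (median log2 fold change −0.54), or for 5 of 6 when libraries were scaled by the upper quartile or by size alone. Of the 14405 protein-coding genes tested, 7898 were below Control in CBX1. Within the family, only SIX2 was called. SIX4, the family's most abundant member by CPM, was at −0.18 (SE 0.12).

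LHX6 and POU4F1 were among the members with an adjusted p below 0.05 and a change under 0.75. LHX6, a factor of cortical interneurons, had 12, 7.46 and 11.8 CPM in Control and 7.11, 5.99 and 6.96 CPM in CBX1 (log2 fold change −0.61, SE 0.21, adjusted p = 0.0444). POU4F1 had 172, 160 and 183 CPM in Control and 196, 207 and 208 CPM in CBX1, a log2 fold change of 0.27 (SE 0.09, adjusted p = 0.0401). At the level of single libraries, 24 of the 88 members had all CBX1 libraries below all Control libraries and 4 had them above. The same was seen for 20.3% and 17.6% of all genes tested. Of the 14405 protein-coding genes tested, 3681 had all CBX1 libraries below and 1999 above, so the members lay near that share for the lower side.

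By homeodomain class, the ANTP-type genes (DLX, EMX, EN, GBX, LBX, MSX, NKX, BARX and VAX) had 1 member lower of 31 tested and a median of −0.16. The paired-type genes (ALX, OTX, PAX, PITX and PRRX) had 1 lower of 17 and a median of −0.10. None of the 7 LIM-homeobox genes, the 14 TALE genes (IRX, MEIS, PBX and TGIF, which often act as cofactors of other homeodomain proteins) or the 4 zinc-finger ZHX genes was called, with medians of 0.01, −0.08 and −0.08. Among alternatives, LHX6 was called lower without Control replicate 2 and IRX4 with the GC trend removed. The TALE median was 0.01 with the library size alone and the ZHX median 0.01, so neither had a direction that held under all scalings. DESeq2 also called 1 member higher and 3 lower, and at an unadjusted p below 0.05 (edgeR) there were 3 higher and 16 lower members of all 88. The share of all genes at this unadjusted threshold was not counted, so this and the unadjusted counts below stand without a background.

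**Figure D2:**
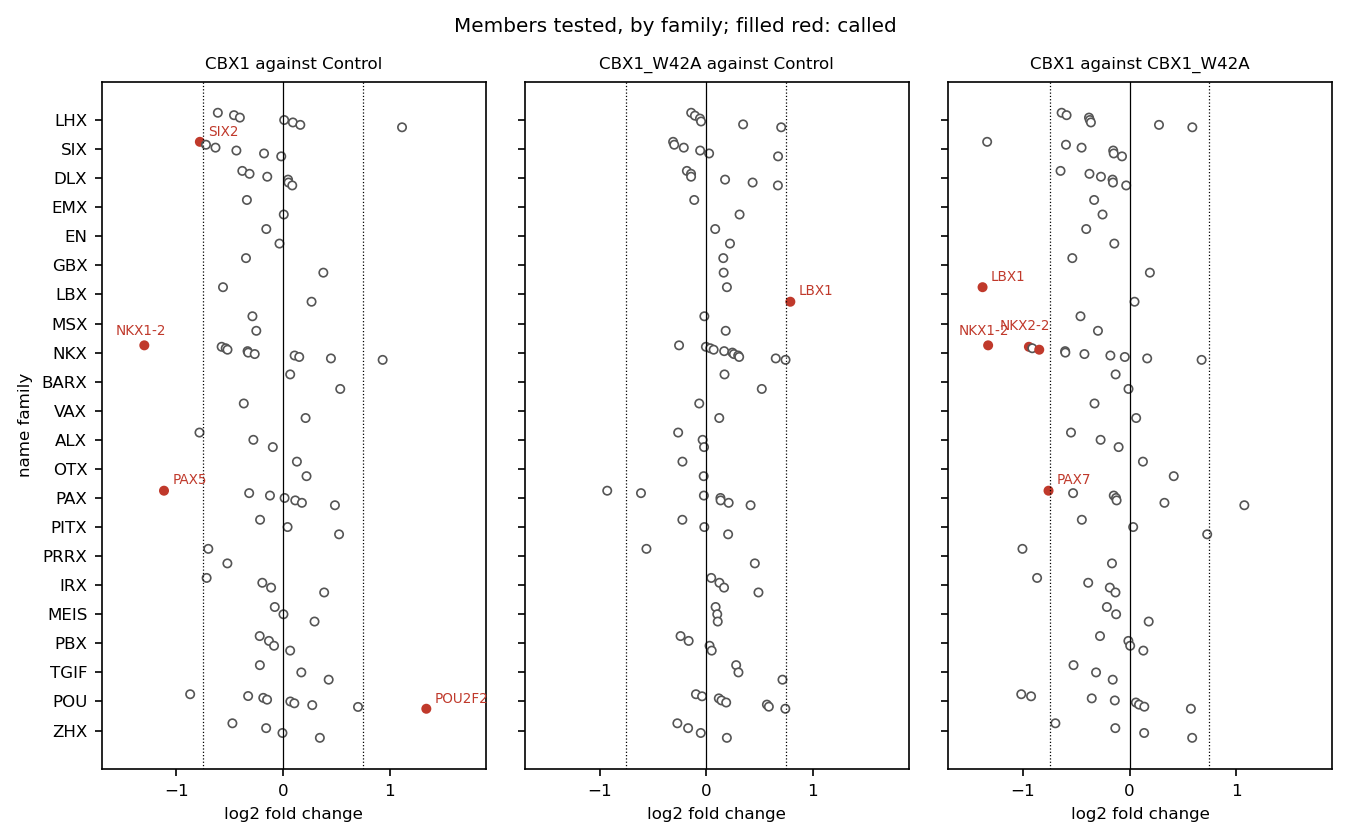
Log2 fold change (horizontal axes) of each member tested, in rows by name family, for the 3 comparisons. Filled red points are the genes called, and dotted lines mark −0.75 and 0.75. In CBX1 against CBX1_W42A, 65 of 87 points lie left of 0 and all 5 called genes are among them.

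The second question was what the mutant chromodomain captured against no reader. LBX1, which specifies dorsal spinal interneurons and migrating limb muscle precursors, rose with CBX1_W42A, and no member fell. Of the 86 members tested, 1 was called higher (1.16%) and 0 lower, beside 0.974% and 0.0214% of all 18680 genes tested. Of the protein-coding genes tested, 0.753% were higher and 0.0279% lower. Both edgeR and DESeq2 called 1 member higher and 0 lower, and at an unadjusted p below 0.05 edgeR had 7 members higher and 3 lower. The median of the members was 0.11, beside 0.01 for all genes and −0.03 for protein-coding genes. Of the members, 52 of 86 were above 0 (60.5%), beside 51.7% of all genes and 44.6% of protein-coding genes tested. Scaled by the upper quartile or by library size alone, 65 of 86 members were above 0.

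LBX1 lies on chromosome 10 from 102986733 to 102989551. It measured 7.89, 6.22 and 7.16 CPM in Control, 4.22, 4.88 and 5.03 CPM in CBX1 and 9.82, 13.7 and 13.4 CPM in CBX1_W42A. The 3 groups did not overlap, with CBX1 lowest and CBX1_W42A highest. In CBX1_W42A against Control the log2 fold change was 0.79 (SE 0.20, adjusted p = 0.0407). This call was near the threshold and was lost in 5 of the 6 fits that left out a library, with adjusted p up to 0.135 without CBX1_W42A replicate 3. It was lost without Control replicate 1 (adjusted p = 0.0938), Control replicate 2 (0.107), Control replicate 3 (0.0953) and CBX1_W42A replicate 2 (0.104) as well.

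DLX2, a factor of forebrain interneurons, and LHX1, which acts in the head organizer and the kidney, had adjusted p below 0.05 with changes under 0.75. DLX2 measured 40.6, 30.9 and 35.7 CPM in Control, 35.1, 41.5 and 32.8 CPM in CBX1 and 46.9, 53.6 and 70.7 CPM in CBX1_W42A, so that the CBX1_W42A libraries lay above all others. Its log2 fold change was 0.67 (SE 0.15, adjusted p = 0.024) against Control. LHX1 measured 10.1, 10.8 and 11.9 CPM in Control and 14.2, 19.8 and 19.6 CPM in CBX1_W42A (log2 fold change 0.70, SE 0.17, adjusted p = 0.038). For 14 of the 86 members all CBX1_W42A libraries lay above all Control libraries and for 3 below, beside 12% and 12.5% of all genes tested. Of the 14350 protein-coding genes tested, 1368 had them above and 2234 below. The member with the smallest log2 fold change was PAX1, a factor of the vertebral column, at −0.93 (SE 0.56, adjusted p = 0.38), from 1.58 ± 0.84 CPM in Control to 0.83 ± 0.61 CPM in CBX1_W42A (SD, n = 3).

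The third comparison set the intact chromodomain against the mutant, with the limit on separate preparation given above. In all, 5 members were lower in CBX1 than in CBX1_W42A, among them LBX1, NKX1-2, NKX2-2 and PAX7, and none was higher. These are 5.75% of the 87 members tested, beside 0.201% of all 19360 genes tested, while 0% of members and 0.795% of all genes were higher. Of the protein-coding genes tested, 0.212% were lower and 0.754% higher. Of the 39 genes lower genome-wide, 5 were thus members. DESeq2 also called 5 members lower and 0 higher, and at an unadjusted p below 0.05 edgeR had 27 members lower and 3 higher. No share of all genes was counted at that unadjusted threshold, so the 27 are not read as a result about the group. The median of the members was −0.18, beside 0.00 for all genes and −0.02 for protein-coding genes. Of the members, 65 of 87 lay below 0, beside 9800 of all 19360 genes tested and 7916 of the 14593 protein-coding genes. The number of members below 0 was 62 with the library size alone and 63 with upper-quartile factors.

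LBX1 showed the largest difference, with a log2 fold change of −1.38 (SE 0.21, adjusted p = 0.000807), from 12.3 ± 2.16 CPM in CBX1_W42A to 4.71 ± 0.43 CPM in CBX1 (SD, n = 3). NKX2-2, which patterns the ventral neural tube and the endocrine pancreas, lies on chromosome 20 from 21491648 to 21494664. It measured 9.35, 7.57 and 7.04 CPM in Control, 5.56, 8.76 and 5.41 CPM in CBX1 and 11.3, 13.2 and 13.4 CPM in CBX1_W42A. CBX1_W42A was the highest group, and Control and CBX1 overlapped. Its log2 fold change was −0.94 (SE 0.20, adjusted p = 0.0149) in CBX1 against CBX1_W42A and 0.65 (SE 0.19, adjusted p = 0.0629) in CBX1_W42A against Control.

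PAX7, the factor of muscle satellite cells, lies on chromosome 1 from 18957500 to 19075360. It measured 9.35, 12 and 11.3 CPM in Control, 7.89, 9.54 and 8.21 CPM in CBX1 and 10.8, 15.4 and 17.4 CPM in CBX1_W42A. The lowest CBX1_W42A library lay inside the Control range and above all CBX1 libraries, and the log2 fold change was −0.76 (SE 0.19, adjusted p = 0.0376), at the edge of the minimum of 0.75. It was called in 7 of 15 alternatives, with values from −0.72 to −0.75 that missed the minimum under upper-quartile or library-size scaling, filterByExpr and the fit of all 9 libraries.

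Single libraries carried part of these calls. Without CBX1 replicate 1, only LBX1 stayed called of the 5 (adjusted p = 0.00833). NKX1-2 then had an adjusted p of 0.0944, NKX2-2 of 0.0993 and PAX7 of 0.166. Without CBX1_W42A replicate 3, 2 members were called, with NKX1-2 at 0.0526, NKX2-2 at 0.0563 and PAX7 at 0.153. Without CBX1 replicate 3, 3 members were called, with NKX2-2 at 0.102 and PAX7 at 0.141. NKX1-2 was at 0.0551 without CBX1_W42A replicate 1, and PAX7 at 0.0818 without CBX1_W42A replicate 2.

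The NKX family, transcription factors of heart, thyroid, lung, pancreas and neural tube, had 9 of 11 tested members below CBX1_W42A in CBX1 and a median of −0.60, the same numbers of members under all 4 scalings. NKX6-1, a factor of beta cells and motor neuron progenitors, measured 14.8, 17.1 and 13.5 CPM in CBX1 and 21.9, 23.7 and 23.3 CPM in CBX1_W42A, groups that did not overlap, with a log2 fold change of −0.60 (SE 0.14, adjusted p = 0.0283) under the minimum of 0.75. NKX2-5, the heart factor and the family's most abundant member by CPM, was at −0.42 (SE 0.14, adjusted p = 0.11). NKX2-3, of spleen and gut, stood on the other side at 0.68 (SE 0.31, adjusted p = 0.27).

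The DLX genes were below 0 for all 6 members, with a median of −0.21, or for 5 of 6 with the library size alone. DLX2 had an adjusted p of 0.0142 at −0.65 (SE 0.14). The 6 genes of the SIX2 family (median −0.30), the 4 IRX genes (median −0.29), the 3 TGIF entries (median −0.31) and the 3 ALX genes (median −0.27) were all below 0 under each of the 4 scalings, without any call. The 3 TGIF entries include the readthrough gene, and only TGIF1, a corepressor of TGF-β signalling, was counted over its own span, with a log2 fold change of −0.53 (SE 0.18, adjusted p = 0.129). PITX1, a hindlimb factor, measured 27.1, 30.7 and 27.3 CPM in CBX1 and 36.5, 40.3 and 39.1 CPM in CBX1_W42A, a log2 fold change of −0.45 (SE 0.12, adjusted p = 0.0486).

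The 2 members each of EMX, EN, MSX and PRRX were also all below 0 (medians −0.29, −0.27, −0.38 and −0.58), as were 5 of 7 LHX genes (median −0.37). OTX, PBX and POU genes did not share this direction. Neither did the PITX genes, with 2 of 3 above 0 (median 0.03), or the ZHX genes, with 2 of 4 above 0 (median 0.00). Both OTX genes of the anterior brain were above 0 (median 0.27), and the 4 PBX cofactors were divided, with a median of 0.00. POU genes were also divided, with 4 members on each side, POU2F2 above at 0.58 and POU4F2, of retinal ganglion cells, below at −1.02 (SE 0.35, adjusted p = 0.132). The largest log2 fold change was that of PAX1 at 1.08 (SE 0.51, adjusted p = 0.29). Across all members tested, 26 had CBX1 libraries all below the CBX1_W42A libraries and 4 all above, beside 11% and 10.3% of all genes tested. Of the 14593 protein-coding genes tested, 1889 had them all below and 1361 all above.

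**Figure D3:**
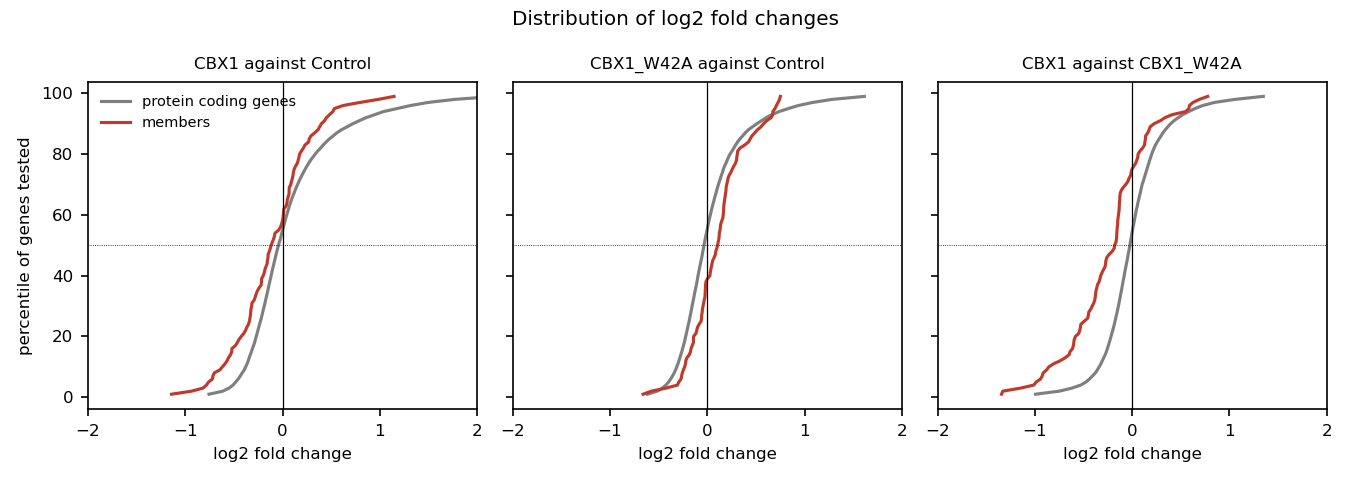
Percentile (vertical axes) against log2 fold change (horizontal axes) for the members tested (red) and the protein-coding genes tested (grey) in the 3 comparisons. The red curve crosses the 50th percentile at −0.12, 0.11 and −0.18, and the grey curve at −0.04, −0.03 and −0.02.

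The members with the most CPM in their families showed small differences in most cases. POU4F1 measured 172 ± 11.6, 204 ± 6.33 and 195 ± 15.1 CPM in Control, CBX1 and CBX1_W42A (SD, n = 3). The cofactors PBX2 (91.2, 84.5 and 77.2 mean CPM) and MEIS2 (48.8, 45.4 and 52.6), the skull factor MSX2 (64.9, 52.2 and 64.2), IRX3 (59.0, 53.7 and 61.0), the midbrain factor EN2 (52.2, 46.0 and 60.9), ZHX3 (54.8, 53.6 and 48.7) and the eye factor PAX6 (44.8, 40.4 and 44.2) were not called in any comparison. Nor were EMX2 (23.9, 23.6 and 29.7), BARX2 (20.5, 21.3 and 23.1), ALX4 (19.6, 18 and 19.3), LHX4 (16.9, 18.6 and 15.3), VAX2 (14.8, 16.8 and 16.1), GBX1 (9.87, 12.5 and 11.0), OTX1 (7.37, 7.90 and 7.24) and PRRX1 of limb mesenchyme (4.65, 2.84 and 3.13 mean CPM). Of these, EN2 came closest, at −0.41 (SE 0.11, adjusted p = 0.0552) in CBX1 against CBX1_W42A.

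The members are short and GC-rich genes. Their span had a median of 9777 bases, against 34460 for the protein-coding genes tested, and the longest transcript a median GC content of 54.8% against 48.3%. Log2 fold changes against Control rose with GC content among protein-coding genes, from a median of −0.10 in the lowest of 5 equal bins of GC content to 0.04 in the highest in CBX1, and from −0.09 to 0.06 in CBX1_W42A. Between CBX1 and CBX1_W42A the medians of protein-coding genes were −0.04 and −0.04 in the same bins. The members had a median of −0.16, −0.15, −0.16, −0.21 and −0.27 from the lowest to the highest bin in that comparison, holding 5, 11, 17, 20 and 33 members. With the GC trend removed, the members' median was −0.17 in CBX1 against Control, 0.03 in CBX1_W42A against Control and −0.17 in CBX1 against CBX1_W42A, and LBX1 was no longer called in CBX1_W42A against Control (log2 fold change 0.64, adjusted p = 0.085).

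Genes related to the members were examined in lists. Of 77 further homeobox genes outside the name families, 45 were tested. The list's median was 0.08 in CBX1 against Control, 0.17 in CBX1_W42A against Control and −0.10 in CBX1 against CBX1_W42A.

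Of the 40 HOX cluster genes, 24 were tested. HOXA7 fell in CBX1 against CBX1_W42A, with 10.1, 17.7 and 13.3 CPM in CBX1 and 23.7, 23.8 and 24.1 CPM in CBX1_W42A (log2 fold change −0.80, SE 0.17, adjusted p = 0.0125; 0.0958 without CBX1 replicate 1 and 0.0653 without CBX1 replicate 3). The other 23 were not called there, and none of the 24 was called against Control by edgeR or DESeq2. At an unadjusted p below 0.05, edgeR had 4 higher and 2 lower for CBX1 and 3 higher and 0 lower for CBX1_W42A. The HOX medians were −0.03, 0.12 and −0.15 in the 3 comparisons.

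The 19 genes for partners of homeodomain proteins, namely EYA and DACH partners of SIX2 and its relatives, LMO, LDB and SSBP partners of LIM factors and TLE corepressors, were all tested, and 0 were called in any comparison by edgeR or DESeq2. At an unadjusted p below 0.05, edgeR had 2 higher in CBX1 against Control, 0 in CBX1_W42A against Control and 2 lower in CBX1 against CBX1_W42A. Their medians were −0.08, 0.07 and −0.11.

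Many homeobox loci carry noncoding genes on the opposite strand. Here 81 such genes overlapped a member or started within 5 kb of its start, and 34 of them were tested in CBX1 against Control. Their median log2 fold change was 0.42, and 28 of 34 were above 0, whereas the median over all noncoding genes tested was 0.49 and over antisense genes 0.50. In CBX1_W42A against Control, 30 of 36 neighbours tested were above 0, with a median of 0.38 (noncoding genes 0.34, antisense genes 0.38). In CBX1 against CBX1_W42A, 19 of 37 were above 0, with a median of 0.03 (noncoding genes 0.13, antisense genes 0.11). Over all noncoding genes tested, 78.1%, 75.3% and 60.5% were above 0 in these 3 comparisons. Of the 34 neighbours tested in CBX1 against Control, 1 was called higher (2.94%). This share was below the 14.5% of noncoding genes and 14.7% of antisense genes called higher there. The neighbour called was the lincRNA RP5-884C9.2, which starts 536 bases from POU3F1. It had 2.05, 3.39 and 1.70 CPM in Control and 6.22, 3.22 and 4.25 CPM in CBX1, groups that overlapped (log2 fold change 0.96, SE 0.33, adjusted p = 0.0469). DESeq2 called none of these neighbours. RP5-884C9.2 was called in 8 of 15 alternative fits, and lost the call without CBX1 replicate 1 (adjusted p = 0.218), CBX1 replicate 3 (0.0925), Control replicate 1 (0.128) or Control replicate 3 (0.145), and with the replicate number as a block (0.0834). In CBX1 against Control there were 34 pairs of a member and a neighbour that were both tested, at 29 loci. The neighbour had the larger log2 fold change in 26 of them, with a median difference of 0.38.

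Against CBX1_W42A the same direction was seen in 25 of 35 pairs, with a median difference of 0.27. LBX1 and its overlapping antisense gene LBX1-AS1 were 1 such pair, at −1.38 and 0.00 (SE 0.21 and 0.18). LBX1-AS1 starts 200 bases inside LBX1 and runs across the LBX1 window printed above. In CBX1 against Control the antisense gene was at 0.14 (SE 0.17), and EMX2OS, opposite the cortical and urogenital factor EMX2, was at 0.11 (SE 0.16). In CBX1_W42A against Control the neighbour was the larger in 19 of 35 pairs.

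**Figure D4:**
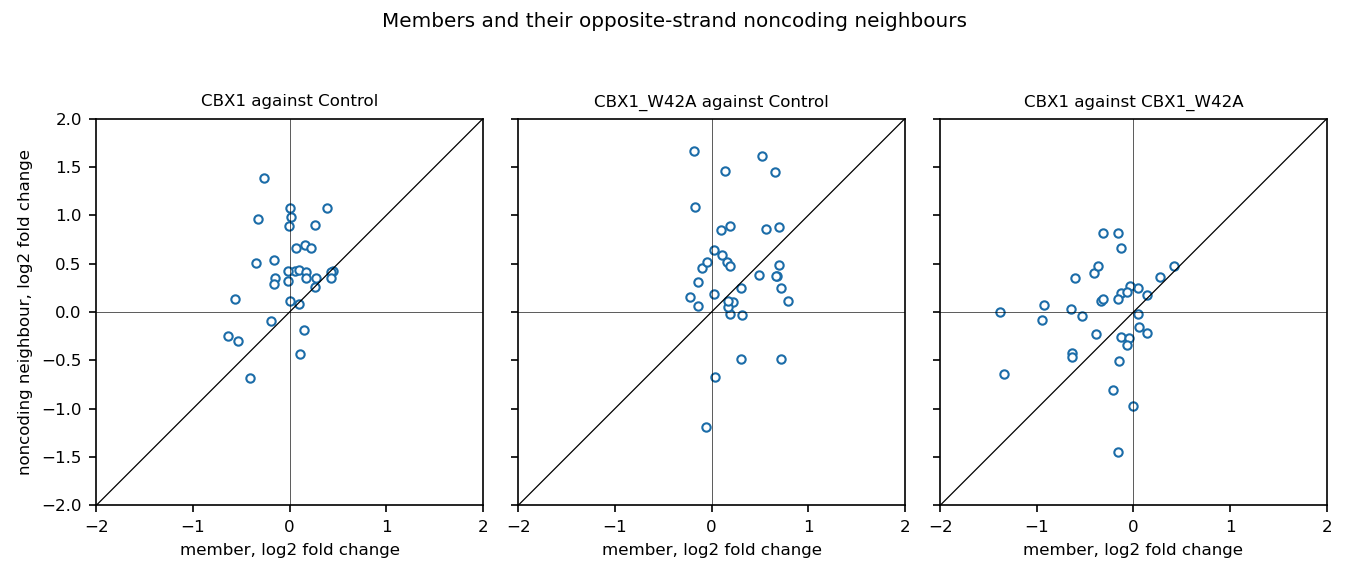
Log2 fold change of each opposite-strand noncoding neighbour (vertical axes) against that of its member gene (horizontal axes) in the 3 comparisons, with the line of equal values. In CBX1 against Control, 26 of 34 points lie above the line.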

How the data were processed

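Chrom-seq libraries of HEK293T cells were compared as counts of read pairs per gene. Per the labels and the study's methods, the authors trimmed reads with fastp (0.23.1), aligned them to hg19 with HISAT2 (2.1.0) and counted them with featureCounts (2.0.1) on GENCODE v19. They deposited whole-number counts without normalization for 57820 genes, with 0 rows naming no gene and 0 sample columns left unused here. The strand setting is not given in the sources used here. None of the 7910 genes contained in another gene of their strand had a count, so overlapping genes lost reads and antisense genes were kept apart. The length listed is the whole span, introns included.

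In R (4.3.3), pairs of groups (3 libraries each) were normalized by TMM and compared by the quasi-likelihood test of edgeR (edgeR 4.0.16, limma 3.58.1), with Benjamini-Hochberg adjustment over all genes with counts summing to more than 18. Calls required an adjusted p below 0.05 and an absolute log2 fold change of 0.75 or more, thresholds, filter and pairwise fits after the study's methods. Standard errors are the absolute log2 fold change divided by the square root of the F statistic. CPM used TMM factors over all 9 libraries, and library-level medians a prior count of 2. Alternatives were DESeq2 (1.42.0; the study used 1.34.0), RLE, upper-quartile or library-size scaling, no filter or filterByExpr, all 9 libraries fitted together, a block for the replicate number, 1 as the minimum log2 fold change, and leaving out each library. Removing the trend with transcript GC content (lowess span 0.3) was added after seeing the data. The tests were checked on simulated data. Sequence, GC content and figures used Python (3.11.15), pandas (2.3.3), numpy (2.4.6) and matplotlib (3.10.9), with the GRCh37 genome and its GENCODE annotation; 102 of 103 member IDs were found there, all at overlapping coordinates. The RefSeq promoter table was not used, since it matched too few members.

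Named genes were members called in any comparison, the member with the most CPM in each family, and the members with the largest and smallest change in each comparison. From the lists, genes called were named. LHX6, DLX2, LHX1, NKX6-1 and PITX1 (below the adjusted p but under the minimum change), POU4F2, NKX2-3, IRX4, BARX1 and the antisense genes EMX2OS and LBX1-AS1 were added after their values were seen. Results for some genes are not reported here. The members, lists and tests were chosen with earlier results of these data known. No 2 libraries were identical, and replicates differed by more than counting noise (chi-square per degree of freedom from 4.65 to 11.4 in 9 pairs).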

Additional observations from a re-analysis of the deposited data

How the results depend on the processing

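Depth limits the low members: NKX1-2, for example, rested on 16 to 87 reads per library. In CBX1 against Control, 1 higher and 3 lower members became 1 to 2 and 1 to 4 over the fits that left out a library, and the median of −0.12 ranged from −0.156 to −0.0249. With the library size alone that median was −0.028, where the median of all genes moved from 0.03 to 0.12. In CBX1_W42A against Control, the 1 higher member became 0 to 3 over the left-out libraries, 3 with upper-quartile factors (median 0.19), 2 with the library size alone, 2 with all 9 libraries in 1 fit, 0 at a minimum log2 fold change of 1 and 0 with the GC trend removed. In CBX1 against CBX1_W42A, the 5 lower members became 1 to 6 over the left-out libraries and 2 at a minimum log2 fold change of 1, and the median ranged from −0.25 to −0.13 over all alternatives. The counts of 0 members lower in CBX1_W42A against Control and 0 higher in CBX1 against CBX1_W42A were 0 in every alternative, whereas LHX6, IRX4, BARX1 and PRRX1, not called in the report, were each called in an alternative for CBX1 against Control. No called gene changed sign in any alternative. The cause of these changes was not tested. The remaining counts and medians stayed within 1.5 times of the count reported or moved by less than the spread between libraries.

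The replicate numbers were not taken to pair the libraries. The correlations of deviations from the group means of same-numbered libraries lay between −0.159 and 0.117, and not every pair of a comparison exceeded 0.1. In CBX1 against CBX1_W42A they were 0.117, 0.0749 and 0.0756 for replicates 1, 2 and 3. These few correlations cannot decide whether the libraries are paired. With the replicate number as a block, the members called were 1 higher and 3 lower, 1 higher and 0 lower, and 0 higher and 5 lower in the 3 comparisons, as without it, while all genes called in CBX1 against CBX1_W42A numbered 250 higher and 66 lower, beside 154 and 39. Over all alternatives these 2 counts ran from 68 to 250 and from 17 to 70.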
